A study of Danio rerio with 24 samples.

Results

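The keratin genes of whole zebrafish were followed through 24 RNA sequencing libraries made from embryos at 10 hours post-fertilisation (hpf) and larvae at 96 hpf. Members were taken by name alone, as every gene in the count files whose symbol starts with krt or krtt and a number, or is cyt1 or cyt1l. This gave 22 genes of the 35117 identifiers in each file. By the usual naming 3 of them are type II keratins (krt4, krt5 and krt8), 18 are type I keratins and 1 is the keratin-like gene KRT222.

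Keratins are the intermediate filaments of epithelial cells. A filament is built from pairs of an acidic type I and a basic type II chain, so epithelia express chains of both types, and the filaments are anchored at desmosomes between cells and at hemidesmosomes on the basement membrane. In the zebrafish gastrula the keratin-rich tissue is the enveloping layer, a flat outer epithelium that becomes the periderm of the embryo, and the larval skin adds a basal layer of keratinocytes beneath that outer layer. Keratins 8 and 18 form the filaments of simple epithelia and are among the first to appear in vertebrate embryos.

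All animals were of the strain Tg(fli1:egfp), a transgenic line in which fli1, an endothelial gene, lends its regulatory sequence to green fluorescent protein. They were kept in the solvent DMSO, in tetrahydrocannabinol (THC) or in cannabidiol (CBD), the treatment lasting through development, and 4 libraries were made for each treatment at 10 hpf and at 96 hpf, 6 groups in all. The series describes the 4 as biological replicates. No source used here gives the doses or the hours of exposure. Whether the replicates came from separate clutches is not said either, so the p-values speak for the spread among these libraries alone.

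The values are reads per gene, given here relative to library size (CPM) with TMM scaling, which corrects for a few abundant genes. Totals were 14879976 to 29641377 counts in 23 libraries and 125926 in DMSO library 4 of 10 hpf, where 3 counts, taken as the floor of detection, amount to 23.8 CPM against 0.101 to 0.202 CPM elsewhere. CBD library 3 of 10 hpf had a TMM factor of 0.588, with 0.902 to 1.16 in the others, so its CPM come out higher than by library totals alone. The 4 libraries DMSO 1, THC 4, CBD 1 and CBD 2 of 10 hpf held 9.98, 10.96, 10.5 and 11.99 CPM of nanog, an early pluripotency factor. The 7 other deep libraries of that stage held 73.6 to 211 CPM. The libraries of 1 group at 10 hpf thus differ in this stage marker. The main counts and medians and some folds that rest on DMSO library 4 or CBD library 3 are also given from fits without both.

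Keratins were prominent at both stages, but different genes carried them. In DMSO the 22 genes summed to 18379 ± 778 CPM at 10 hpf and 24274 ± 3833 CPM at 96 hpf (SD, n = 4 each). They made up 1.51% to 2.18% of the counts in the libraries of 10 hpf and 1.92% to 2.62% at 96 hpf. Whether more keratin RNA per cell or more keratinocytes stand behind a level cannot be told apart in whole animals. CPM also grow with transcript length, which was not used here, so the levels of 2 keratins are not compared as expression, and shares of the keratin reads are given as a description of the libraries.

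**Figure D1:**
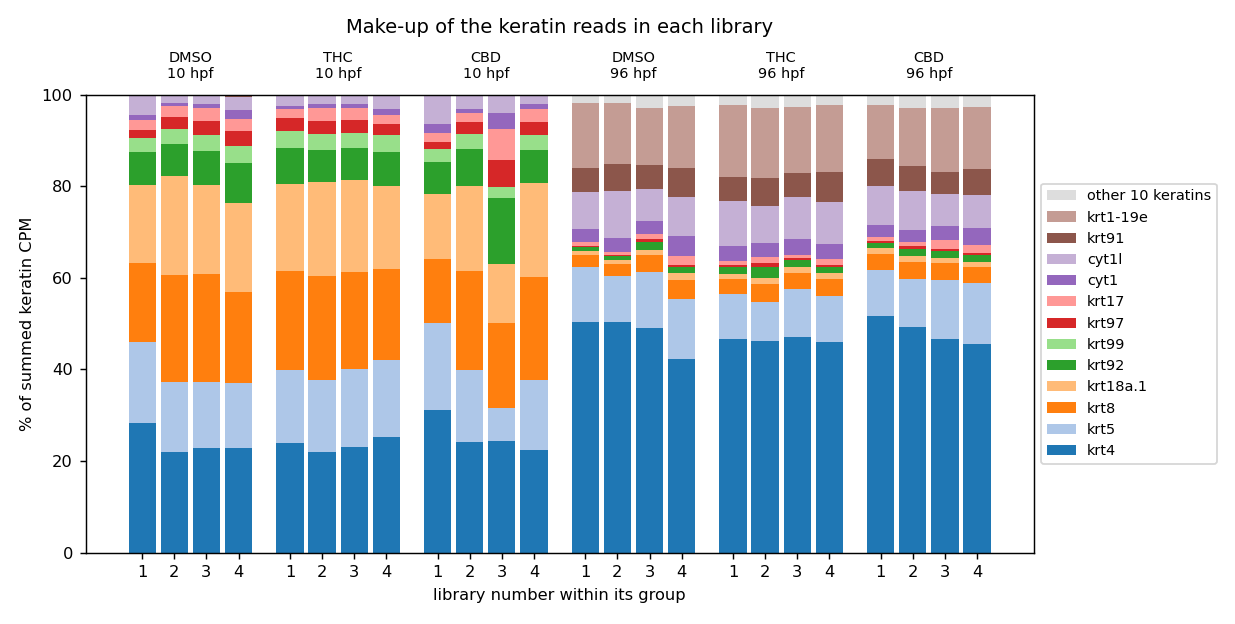
Share of each library's summed keratin CPM (vertical axis, %) taken by 12 named keratins and the other 10, for the 24 libraries grouped by treatment and stage (horizontal axis, library number). krt8, krt18a.1, krt92, krt99 and krt97 fill much of the bar at 10 hpf and little at 96 hpf, where krt4, krt1-19e, krt91 and cyt1l fill more of it.

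The make-up of the keratin reads does not depend on how libraries are scaled. Of the keratin CPM in DMSO, krt8 took 20.9 ± 2.97% at 10 hpf and 3.27 ± 0.753% at 96 hpf, and krt18a.1 took 19.4 ± 1.92% and 1.11 ± 0.274%. The share of krt4 went the other way, from 24.05 ± 2.91% to 48.0 ± 3.83%. For krt1-19e it went from 0.0896%, or 0.00763% without DMSO library 4, to 13.3%, with 12.3% to 14.2% in the 4 larval libraries. The 6 members with the highest CPM at 10 hpf (krt4, krt8, krt18a.1, krt5, krt92 and krt99) held 90.7 ± 1.55% of the keratin reads. At 96 hpf the first 6 were krt4, krt1-19e, krt5, cyt1l, krt91 and cyt1, with 90.6 ± 2.62%, so that krt4 and krt5 were in both sets. The 3 type II chains together summed to 11097 ± 735 CPM at 10 hpf and 15298 ± 2324 CPM at 96 hpf, and the 18 type I genes to 7277 ± 521 CPM and 8955 ± 1693 CPM.

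Between 10 and 96 hpf in DMSO, 13 keratins rose and 5 fell by edgeR's quasi-likelihood test with Benjamini-Hochberg adjustment over 22741 genes and a threshold of 0.05. Among all genes tested 42.7% were called higher and 34.4% lower, 77.1% in either direction, so a call between these stages is common. The median log2 fold change was 1.91 over the 22 keratins and 0.32 over all genes. A stricter rule asked for a call and at least a 4-fold change. By it 10 keratins were higher at 96 hpf, against 31.0% of all genes, and 5 were lower, against 16.2%. The 10 are called larval keratins below and the 5 embryonic keratins, a description of the DMSO libraries that the THC and CBD libraries did not enter.

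The embryonic keratins were krt99, krt18a.1, krt92, krt8 and krt97. Together they held 54.0 ± 5.22% of the keratin CPM of DMSO at 10 hpf, 53.7 ± 6.34% without library 4, and 5.97 ± 1.53% at 96 hpf. A fall in DMSO follows from how the class was chosen. The shares at the 2 stages were 54.3% and 7.13% in THC and 51.0% and 6.66% in CBD. All embryonic keratins but the type II chain krt8 are type I, as are 18 of the 22 members.

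Keratin krt8 (ENSDARG00000058358), the type II chain of simple epithelia, stood at 3307, 4051, 4233 and 3722 CPM in the DMSO libraries of 10 hpf and at 646, 755, 726 and 994 CPM at 96 hpf. Its usual partner krt18a.1 (ENSDARG00000018404), a keratin 18, stood at 3273, 3789, 3546 and 3631 CPM and then at 233, 264, 206 and 374 CPM. Every library of 10 hpf lay above every library of 96 hpf for both genes. The log2 fold change was −2.40 for krt8 (SE 0.217, adjusted p = 1.48e-09) and −3.83 for krt18a.1 (SE 0.219, adjusted p = 1.51e-12) by edgeR, so that the pair fell together but to different degrees.

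The steepest fall was that of krt99, a type I keratin. Its DMSO libraries held 600, 563, 643 and 698 CPM at 10 hpf and 3.79, 3.17, 4.90 and 3.46 CPM at 96 hpf. The lowest embryonic library thus lay far above the highest larval one, with a log2 fold change of −7.45 (SE 0.301, 95% interval −8.07 to −6.83, adjusted p = 1.76e-14 by edgeR). For krt92, which is expressed in the enveloping layer, the libraries held 1383, 1211, 1329 and 1606 CPM and then 184, 203, 323 and 309 CPM. Those groups were also apart, with a log2 fold change of −2.54 (SE 0.324, adjusted p = 2.99e-07). The type I gene krt97 lay nearest to the 4-fold limit from within, at −2.27 (SE 0.391), with means of 497 ± 112 and 110 ± 22.8 CPM.

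The larval keratins were 9 type I genes (krt15, krt1-19e, krt18b, krt91, krt1-19d, krt1-c5, krt94, krt98 and krt18a.2) and KRT222. Their share of the keratin CPM in DMSO was 0.232% at 10 hpf, 0.123% without library 4, and 21.3 ± 0.717% at 96 hpf. A rise in DMSO again follows from how the class was chosen. From 10 to 96 hpf the share went from 0.128% to 23.3% in THC and from 0.148% to 21.1% in CBD. No type II gene was among the larval keratins, but only 3 of the 22 members are type II. With size factors of DESeq2 the type II gene krt4 also passed 4-fold (2.09).

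The largest level among them at 96 hpf was that of krt1-19e, also written krtt1c19e, a marker of basal keratinocytes. In DMSO it stood at 3.05, 0.279, 0.984 and 62.8 CPM at 10 hpf and at 3568, 3748, 2334 and 3350 CPM at 96 hpf. The 62.8 CPM rest on 9 counts in the shallow library 4, and the other 3 libraries, with 62, 5 and 17 counts, stood at up to 3.05 CPM. The larval libraries all lay far above these values. The log2 fold change was 10.47 (SE 1.24, 95% interval 7.89 to 13.04, adjusted p = 1.03e-07 by edgeR), and 11.09 (SE 1.02) without DMSO library 4 and CBD library 3. Over 17 alternatives it lay between 8.72 and 12.14.

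Next to it in the larval reads was krt91, at 14.5, 8.93, 13.7 and 27.9 CPM in the embryos and 1288, 1669, 1030 and 1560 CPM in the larvae. This type I keratin was thus detected above the floor in the 3 deep DMSO embryo libraries and rose by 6.63 on the log2 scale (SE 0.533, adjusted p = 2.3e-10). The highest fitted fold was that of krt15, a type I keratin, with 2, 1, 1 and 1 counts in the DMSO embryo libraries and 194, 209, 218 and 248 CPM in the larvae. A fitted value of 11.02 (SE 0.615, adjusted p = 1.04e-12) rests on those 5 embryonic counts. The keratin 18 copy krt18b stood at 1.13, 0.223, 0.231 and 0 CPM and then at 153, 159, 143 and 192 CPM, a log2 fold change of 8.12 (SE 0.608, adjusted p = 7.61e-11).

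The remaining larval keratins reached lower CPM at 96 hpf. The means in DMSO larvae were 68.7 CPM for krt94, 52.7 for krt1-19d, 15.5 for krt1-c5, 5.83 for krt18a.2 and 1.07 for krt98, and their log2 fold changes lay between 4.13 and 6.28. For krt98 the 4 embryo libraries held 2 counts in all and the larval ones 95, a ratio of 29.4 by depth with an exact 95% interval of 7.93 to 247 that covers counting error only. The gene KRT222 lay just inside the 4-fold limit at 2.02, from 5.44 ± 2.15 to 21.5 ± 1.77 CPM.

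**Figure D2:**
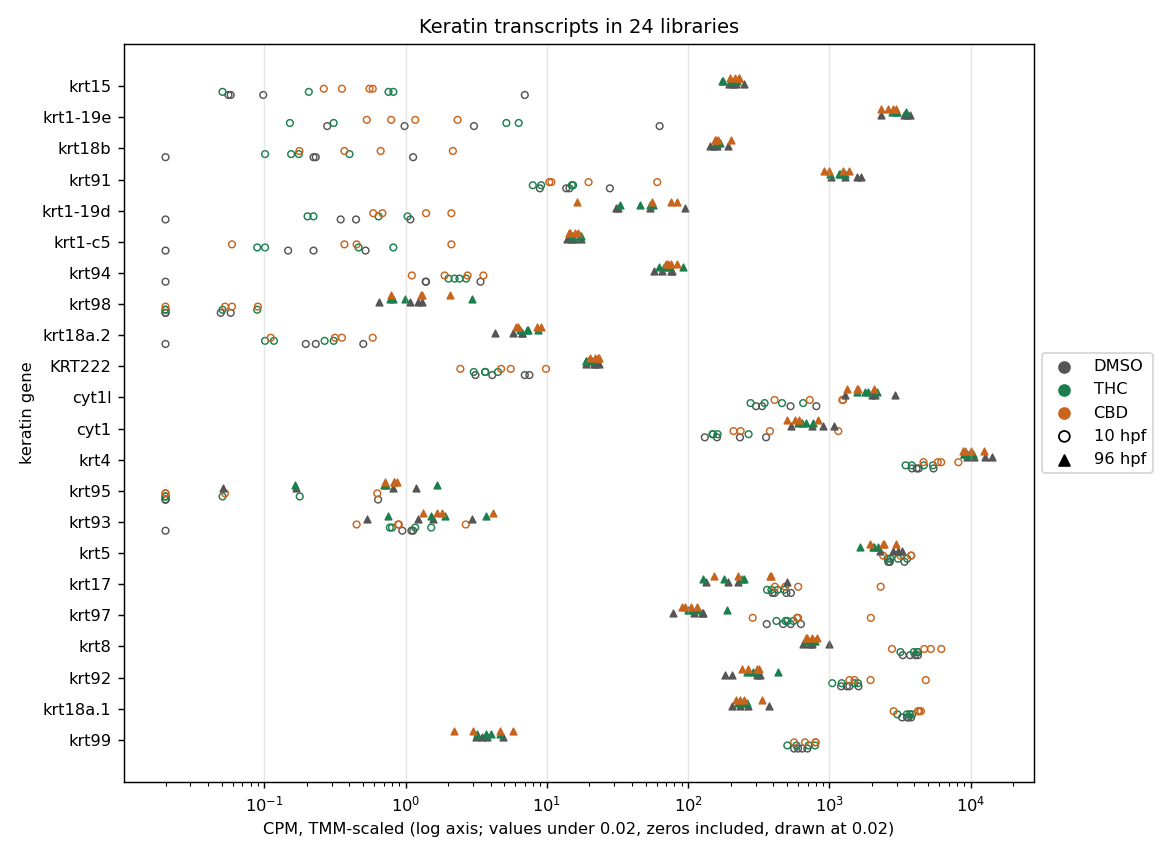
CPM of the 22 keratins (vertical axis, ordered by their stage difference in DMSO) in each of the 24 libraries on a log axis, open circles for 10 hpf and filled triangles for 96 hpf, coloured by treatment. From krt15 down to KRT222 the triangles lie to the right of the circles, and from krt97 down to krt99 to the left.

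The surface keratins cyt1, cyt1l and krt4 lay between these classes. They mark the enveloping layer and the periderm, and all 3 rose in DMSO by less than 4-fold. Not all surface keratins did so, as krt92 of the enveloping layer fell (−2.54) and the surface gene krt17 was not called (−0.90). The libraries held 809, 302, 334 and 531 CPM of cyt1l at 10 hpf and 2018, 2893, 1298 and 2107 CPM at 96 hpf, with a log2 fold change of 1.98 (SE 0.359, adjusted p = 3.48e-05). Those of krt4 held 5460, 3843, 4143 and 4288 CPM and then 12646, 14190, 9343 and 10470 CPM, a rise of 1.29 (SE 0.221, adjusted p = 1.63e-05). Both genes had no overlap between the stages. For cyt1 the rise was 1.85 (SE 0.430, adjusted p = 0.000508), from 220 ± 100 to 814 ± 227 CPM, and it lay with cyt1l just outside the 4-fold limit.

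The other 4 keratins were not called in DMSO. The epidermal type II chain krt5 (ENSDARG00000058371) stood at 3399, 2672, 2609 and 2661 CPM at 10 hpf and 3044, 2834, 2292 and 3252 CPM at 96 hpf, and these ranges overlap. Its log2 fold change was −0.09 with a 95% interval of −0.49 to 0.30 (adjusted p = 0.665 by edgeR). The sign changed with several settings, and with size factors of DESeq2 the value was 0.71 and was called higher (adjusted p = 0.0015). The surface gene krt17 stood at 458 ± 67.3 and 263 ± 161 CPM (−0.90, 95% interval −1.85 to 0.06, adjusted p = 0.0799), and DMSO library 4 of 96 hpf, at 498 CPM, lay among the embryonic values. Type I genes krt93 and krt95 had few reads at both stages. In DMSO krt93 had 23, 17, 19 and 0 counts at 10 hpf and 13, 24, 65 and 37 counts at 96 hpf, and krt95 had 13, 0, 0 and 0 and then 20, 1, 26 and 4.

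How the stages are scaled to each other decides how many keratins pass the 4-fold limit in each direction. With size factors of DESeq2 the median of all genes moved from 0.32 to 1.14 on the log2 scale in DMSO, and 55.0% of genes were called higher and 21.9% lower. Of the embryonic keratins krt99 (−6.63) and krt18a.1 (−3.02) then stayed 4-fold lower. The others, krt92 (−1.72), krt8 (−1.58) and krt97 (−1.45), were still called lower. All 10 larval keratins kept their class, and cyt1, cyt1l and krt4 joined them at 2.64, 2.76 and 2.09. Counts past 4-fold were thus 13 higher and 2 lower in DMSO, and the same in THC. The share of all genes past 4-fold with these factors is not given here for any treatment, so these counts are not set against it.

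Fitted without both doubtful embryo libraries (DMSO 4 and CBD 3), 13 keratins rose and 5 fell in DMSO. By at least 4-fold 12 rose and 5 fell, since cyt1 (2.20) and cyt1l (2.09) crossed the limit. That fit called 18670 genes in either direction, and its share of all genes past 4-fold is not given here. The embryonic keratins stood at −7.30 for krt99, −3.73 for krt18a.1, −2.37 for krt92, −2.32 for krt8 and −2.06 for krt97. The larval krt15, krt18b and krt91 stood at 11.43, 8.18 and 6.79.

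The classes of the DMSO libraries were then looked for in the THC and CBD libraries, which share no library with DMSO but were fitted with it. Most genes were called between the stages in each treatment, so a class found in DMSO is likely to recur for any gene. How often the 4-fold genes of DMSO as a whole kept their class was not computed, so recurrence is not read as particular to keratins. In THC all 10 larval keratins were again at least 4-fold higher, as 32.4% of all genes were, and all 5 embryonic keratins at least 4-fold lower, as 17.1% were. In CBD this held for 9 larval and all 5 embryonic keratins, where 30.5% of all genes were 4-fold higher and 16.4% 4-fold lower, and the tenth, KRT222, rose by 1.86. Over all members 14 rose and 7 fell in THC, where 44.5% and 35.4% of all genes were called higher and lower, 79.9% in all. In CBD 12 rose and 7 fell, where the shares of all genes were 42.4% and 35.6%, 78.0% in all. Leaving out the 2 doubtful embryo libraries, DMSO 4 and CBD 3, gave 14 and 7 in both treatments. That fit called 19221 genes in either direction in THC and 18268 in CBD. Of the keratins 12 were then past 4-fold higher and 4 lower in THC, and 9 and 5 in CBD. With size factors of DESeq2 there were 2 past 4-fold lower in THC and 4 in CBD.

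**Figure D3:**
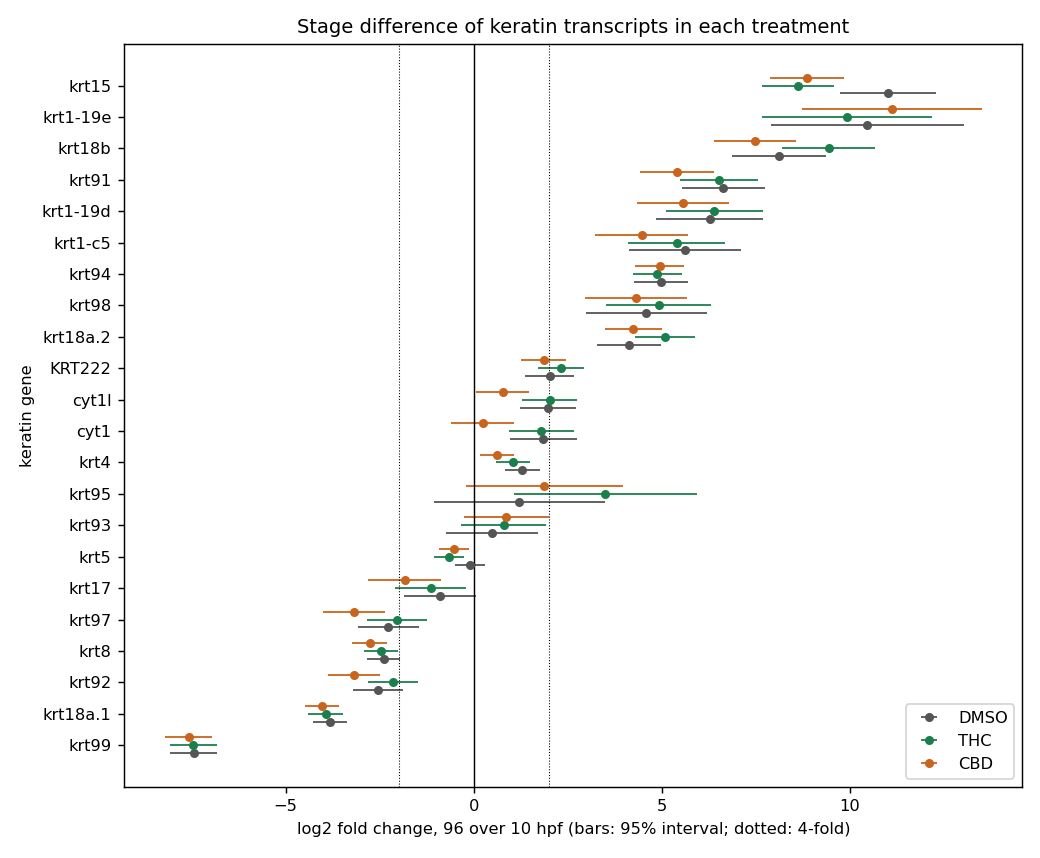
Log2 fold change of each keratin (vertical axis) from 10 to 96 hpf in DMSO, THC and CBD (horizontal axis, points with 95% intervals from edgeR, 4 libraries per group), with dotted lines at 4-fold. krt99 lies between −7.59 and −7.45 in each treatment, and cyt1, cyt1l, krt4 and krt91 lie further left in CBD than in DMSO.

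Single values were close between treatments for some genes. For krt99 the stage difference was −7.45 in DMSO, −7.45 in THC and −7.59 in CBD, and for krt94 it was 4.97, 4.89 and 4.95. The difference of the CBD value from that of DMSO was −0.14 for krt99 (95% interval −0.82 to 0.55) and −0.03 for krt94 (−0.86 to 0.81). Other genes varied more, such as krt15 (11.02 in DMSO, 8.62 in THC and 8.87 in CBD) and krt18b (8.12, 9.44 and 7.47). Surface keratins varied as well, so this is not particular to them. In CBD, cyt1l rose by 0.77 (adjusted p = 0.0480) and krt4 by 0.61 (adjusted p = 0.0146) by edgeR, and cyt1 stood at 0.24 (95% interval −0.60 to 1.08, adjusted p = 0.599). Without CBD library 3 and DMSO library 4 these were 1.07, 0.87 and 1.195, all called (adjusted p = 0.0133, 0.000655 and 0.000460), so that the low value of cyt1 in CBD rests on CBD library 3 (1.19 without it alone) and on the scaling (0.85 by library totals and 1.01 with size factors of DESeq2, both called). In the fit of all libraries the calls of cyt1l and krt4 were lost when single CBD libraries were left out. Both krt5 and krt17 were called lower in THC (−0.67 and −1.15) and in CBD (−0.53 and −1.84). With size factors of DESeq2 krt5 turned to 0.20 and 0.31 without a call, and krt17 was called only in CBD.

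Whether the stage difference itself depended on treatment was tested by an interaction term in the fit of the 24 libraries. No keratin was called by edgeR for THC or CBD, where 0.0% of 22741 genes were called for either. At an unadjusted p under 0.05 there were 539 genes for THC, with krt15 and krt5 among them, and 1523 for CBD, with cyt1, cyt1l, krt15, krt4 and krt91. For CBD the values were −1.61 for cyt1 (SE 0.586), −1.21 for cyt1l (SE 0.490), −0.68 for krt4 (SE 0.307) and −1.24 for krt91 (SE 0.589), each with an adjusted p of 0.715. The median of the 22 keratins for CBD was −0.54, and −0.22 without DMSO library 4 and CBD library 3, where 0 keratins were called. The value of krt15 was −2.15 for CBD (SE 0.801) and −2.39 for THC (SE 0.783), and both use the 5 DMSO embryo counts. DESeq2 called 0 keratins, whereas limma's voom with library quality weights called cyt1l (−1.46, adjusted p = 0.0367) and krt4 (−0.77, adjusted p = 0.0418) for CBD. That voom fit called 578 of the 22741 genes.

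Keratins that stand side by side in the genome did not move as blocks between the stages. In RefSeq's gene order of the assembly GRCz12tu, used here for neighbours only, krt1-19d, krt1-19e, krt92, cyt1l, cyt1, krt17 and krt91 follow each other with 0 protein-coding genes between them. Within that row krt92 fell by 2.54 in DMSO while its neighbours krt1-19e and cyt1l rose by 10.47 and 1.98. A second row runs krt93, krt94, krt98, krt15 and krt99, where krt99 fell by 7.45 beside krt15, which rose by 11.02. In the third, krt5, krt8, krt18a.1 and krt18a.2, the keratin 18 copies went apart, krt18a.1 falling by 3.83 and krt18a.2 rising by 4.13. How reads shared by near-identical copies were counted was not checked, so the levels of both copies of such pairs are uncertain.

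Genes that work with keratins changed between the stages in both directions. Of 22 desmosome and hemidesmosome genes 7 rose and 10 fell in DMSO, where 42.7% of all genes rose and 34.4% fell. With size factors of DESeq2 9 rose and 6 fell, where 55.0% of all genes rose and 21.9% fell, so the list has no direction that holds under both scalings. The hemidesmosome collagens col17a1a (3.46 to 364 CPM, log2 fold change 7.18) and col17a1b (0.723 to 33.8 CPM, 5.05) rose, and the plakins PPL (613 to 160 CPM, −2.05) and DSP (identifier ENSDARG00000022309, 610 to 84.5 CPM, −2.96), which tie filaments to desmosomes, fell. Among 19 epidermal regulators 1 rose and 13 fell. Leading them were the enveloping layer factors klf17 (104 to 6.47 CPM, −4.10) and grhl3 (66.3 to 11.3 CPM, −2.68), with GATA2 (−2.32) and TFAP2C (−2.04). With size factors of DESeq2 3 regulators rose and 9 fell.

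Surface genes and other filament genes also changed. Of 20 genes of the surface layer and skin 9 rose and 5 fell, and 14 and 4 with size factors of DESeq2. Among all genes 42.7% rose and 34.4% fell, 77.1% in either direction, and 55.0% and 21.9% with those size factors. The 4 named by smallest p were lgals2b (8.78), AGR2 (6.70), icn (5.74) and icn2 (5.52). Of 18 other intermediate filament genes 12 rose and 3 fell, and 14 and 2 with size factors of DESeq2. The neuronal filament genes INA (7.33), NEFL (7.34) and PRPH (3.77) and the lens filament gene BFSP2 (10.31) were the named members. With most genes called between the stages, these counts are not read as particular to filaments or to the surface layer.

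Genes of other tissues and of the gastrula changed as well. All 13 skeletal muscle genes had positive values, 12 of them called, and their summed level went from 260 CPM, 88.0 without DMSO library 4, to 55356 CPM. Of 13 factors of the gastrula all were called lower. Hatching gland genes split into 3 higher and 5 lower of 8, and notochord genes into 5 higher and 2 lower of 10. The shares of all genes were 42.7% higher and 34.4% lower. The part of such shifts in the CPM of keratins was not tested.

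Treatment effects on keratins in embryos were sought at 10 hpf, where 17 of the 22 members, larval keratins among them, passed the filter on low counts. The other 5 (krt1-c5, krt18a.2, krt18b, krt95 and krt98) did not reach the filter's level in enough libraries. That level is relative to library size, so krt15 met it in the shallow DMSO library 4 with 1 count (7.94 CPM by library total). Between THC and DMSO 0 keratins were called by edgeR, where 0.0% of 17595 genes were called, and DESeq2 and voom called 0 keratins as well. Such a lack of calls says little by itself about moderate effects. With simulated counts for this comparison, recovery was 1% at a 2-fold difference and 31% at a 4-fold difference. The genes changed there were drawn at random from all those tested, and recovery was not computed for keratins. At an unadjusted p under 0.05 there were 49 genes and 0 keratins. The summed keratin level was 18276 ± 2682 CPM with THC and 18379 ± 778 CPM with DMSO. For the abundant chains the intervals were narrow and lay within a 2-fold difference either way. The values were −0.01 for krt8 (95% interval −0.54 to 0.52), −0.04 for krt18a.1 (−0.47 to 0.38) and 0.04 for krt5 (−0.40 to 0.47).

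The 3 smallest p values between THC and DMSO belonged to genes of few counts. For krt15 the THC libraries held 0.0506, 0.207, 0.819 and 0.758 CPM against the 5 DMSO counts (log2 fold change 2.07, SE 1.07, adjusted p = 1 by edgeR). For krt1-19e they held 0.152, 0.310, 6.32 and 5.17 CPM (−1.11, SE 1.75, adjusted p = 1), a value that became 1.02 without DMSO library 4. KRT222 stood at 3.04, 3.67, 4.51 and 3.65 CPM, against 7.52, 3.12, 4.11 and 6.98 CPM in DMSO (−0.45, SE 0.446, adjusted p = 1). All of these groups overlap.

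Between CBD and DMSO at 10 hpf no keratin was called. How many stood higher with CBD changed with the scaling and when CBD library 3 and DMSO library 4 were both left out. Values were above 0 for 16 of the 17 tested, with a median of 0.47 on the log2 scale against 0.06 over all genes, and the sum was 24556 ± 6208 CPM, or 21587 ± 2223 CPM without CBD library 3. Without that library and DMSO library 4, 14 of 17 were above 0 with a median of 0.14. By library totals alone 11 of 17 were above 0 with a median of 0.19 (−0.13 over all genes), and the sums were 20433 ± 1396 CPM with CBD and 19012 ± 2089 CPM with DMSO. edgeR called 0 keratins and 0.0% of 17595 genes, with 952 genes and 3 keratins at an unadjusted p under 0.05, and DESeq2 and voom called 0 keratins. Simulated recovery of randomly drawn genes in this comparison was 2% at a 2-fold difference and 26% at a 4-fold difference. Moderate effects could thus be missed, though recovery was not computed for keratins.

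Those 3 are genes of the enveloping layer. CBD libraries 1 to 4 held 379, 235, 1157 and 210 CPM of cyt1, against 233, 131, 160 and 356 CPM in DMSO (log2 fold change 1.23, SE 0.535, 95% interval 0.07 to 2.38, adjusted p = 0.805). Of krt17 they held 412, 487, 2308 and 601 CPM, against 395, 409, 534 and 496 CPM (1.07, SE 0.476, adjusted p = 0.805). Of krt92 they held 1386, 1955, 4809 and 1506 CPM, against 1383, 1211, 1329 and 1606 CPM (0.80, SE 0.369, adjusted p = 0.805). In each the highest value was that of CBD library 3, and the groups overlap. Without that library and DMSO library 4 the log2 fold changes were 0.64 for cyt1, 0.13 for krt17 and 0.27 for krt92. The lowest values over the alternatives run were 0.40, 0.08 and 0.18.

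**Figure D4:**
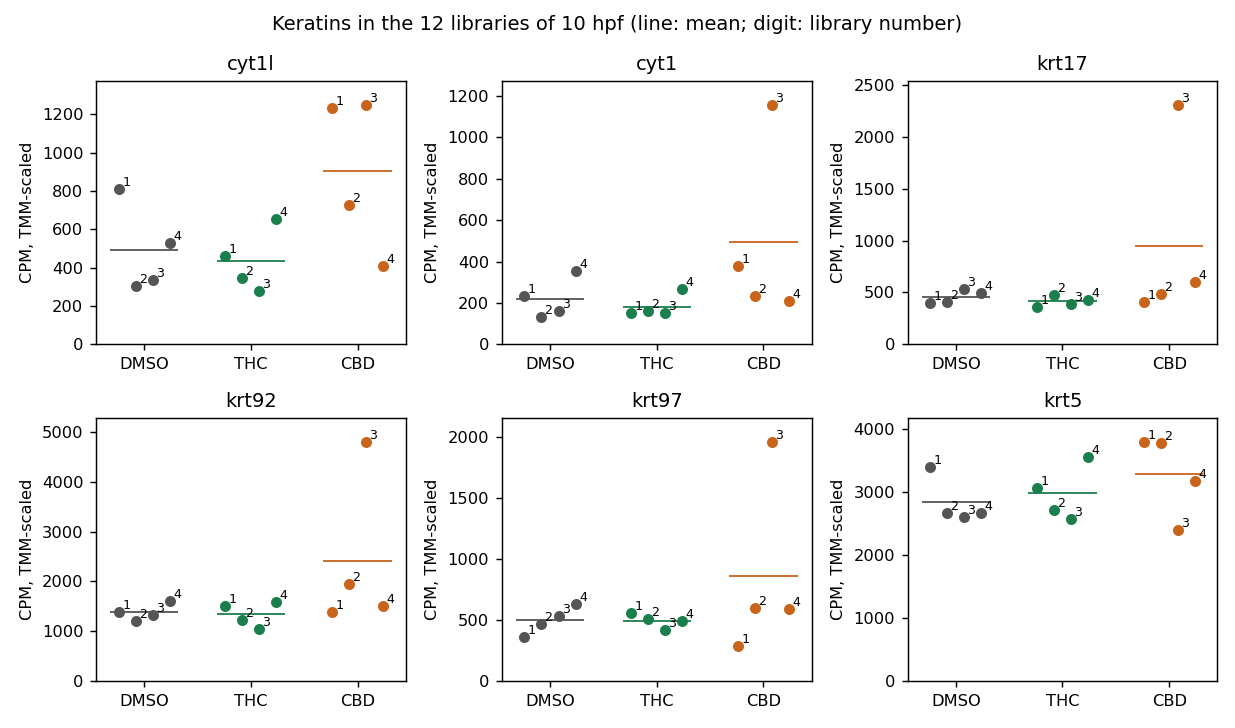
CPM of 6 keratins (vertical axes, starting at 0) in the 12 libraries of 10 hpf by treatment, each point labelled with its library number and lines at the group means. CBD library 3 stands above the others for cyt1, krt17, krt92 and krt97 and lowest for krt5, and CBD libraries 1 and 3 are highest for cyt1l.

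CBD library 3 differed in which keratins it held, whatever the scaling. Of its keratin CPM krt17 took 6.90%, krt92 14.4%, krt97 5.87% and cyt1 3.46%. The other 11 libraries of this stage lay at 1.87% to 2.95%, 6.93% to 8.58%, 1.44% to 3.36% and 0.752% to 1.91%. The share of krt5 was 7.18% there and 14.2% to 19.1% in the others, and that of krt18a.1 was 12.9% and 14.3% to 21.7%. By library totals alone krt17 stood at 1357 CPM against 353 to 564, and krt5 at 1412 against 2498 to 4092. The summed surface layer and skin list stood at 5723 CPM in this library and 1685 to 2422 CPM in the others. The anchoring list stood at 1198 CPM against 1899 to 3016. The part of these shifts in the CBD values was not tested beyond leaving the library out.

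A further gene of the enveloping layer, cyt1l, varied within all groups of 10 hpf. The libraries of low nanog named above (DMSO 1, THC 4, CBD 1 and CBD 2) held 809, 652, 1235 and 726 CPM of it. The 7 other deep libraries held 277 to 462 CPM except for CBD library 3 with 1249 CPM, and the shallow DMSO library 4 held 531 CPM. In DMSO and in THC the highest cyt1l value was thus in the library with low nanog. The libraries of low nanog were not alike in the muscle gene smyhc1. It stood at 70.6 CPM in DMSO 1 and 156 CPM in CBD 1, but at 1.92 CPM in THC 4 and 0.236 CPM in CBD 2. The means of cyt1l were 494 ± 233 CPM in DMSO, 435 ± 164 CPM in THC and 905 ± 410 CPM in CBD. In CBD 2 of the 4 libraries are of low nanog, and the part of stage in these means was not tested.

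Against THC the CBD values at 10 hpf rest on the same CBD libraries as those against DMSO. Of 17 keratins 15 were positive, with a median of 0.53 against 0.05 over all genes (12 and 0.21 without CBD library 3 and DMSO library 4), and 0 keratins and 0.0% of 17595 genes were called by edgeR. Here too simulated recovery of randomly drawn genes was low, at 2% for a 2-fold difference and 31% for a 4-fold difference. DESeq2 and voom called 0 keratins, and 1601 genes and 5 keratins had an unadjusted p under 0.05. These were cyt1 (1.49, SE 0.526), krt17 (1.24, SE 0.473), cyt1l (1.08, SE 0.416), krt92 (0.88, SE 0.368) and krt4 (0.53, SE 0.240), each with an adjusted p of 0.542. The THC libraries held 150, 162, 149 and 268 CPM of cyt1 and 462, 348, 277 and 652 CPM of cyt1l, and both overlapped with CBD. Without CBD library 3 the CBD means were 275 CPM for cyt1, 500 CPM for krt17 and 1615 CPM for krt92, against 182, 415 and 1341 CPM in THC. In none of the 3 comparisons of 10 hpf was any of the 22 keratins free of overlap between groups, where 1.03%, 1.08% and 1.04% of genes were so in the higher direction and 0.171%, 0.549% and 2.32% in the lower. Against DMSO this was fixed for some members by the shallow library 4. It held 0 counts of krt94, krt18b and others, so no group could lie below DMSO for them. Its 1 count of krt15, at 6.98 CPM, stood above every other embryo library.

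In larvae all 22 keratins were tested, and 0 were called in any treatment comparison by edgeR, DESeq2 or voom. Of 21409 genes edgeR called 0.0514% between THC and DMSO, 0.0% between CBD and DMSO and 0.0% between CBD and THC, and 802, 410 and 540 had an unadjusted p under 0.05. The keratins summed to 24274 ± 3833 CPM with DMSO, 20342 ± 1470 CPM with THC and 20843 ± 2638 CPM with CBD. The comparisons of THC and of CBD with DMSO share the DMSO libraries.

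Lower krt5 with THC had the smallest p of any larval keratin. THC larvae held 2198, 1649, 2019 and 2067 CPM of krt5 and DMSO larvae 3044, 2834, 2292 and 3252 CPM, so that every THC library lay below every DMSO library. The means were 1983 ± 235 and 2855 ± 413 CPM, with a log2 fold change of −0.48 (SE 0.153, 95% interval −0.81 to −0.16, unadjusted p = 0.00692, adjusted p = 0.918 by edgeR). The value lay between −0.56 and −0.40 over 16 alternatives, with adjusted p from 0.223 to 1, and it did not pass the correction. Of all genes 0.916% were free of overlap in this direction and 0.95% in the other, and krt5 was the only keratin of 22 so placed. Between CBD and DMSO, where 0.771% of genes were free of overlap upward and 0.741% downward, and between CBD and THC, where 1.35% and 0.916% were, it was 0 keratins. CBD larvae held 2408, 1923, 2422 and 2951 CPM (−0.21 against DMSO, 95% interval −0.54 to 0.12).

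**Figure D5:**
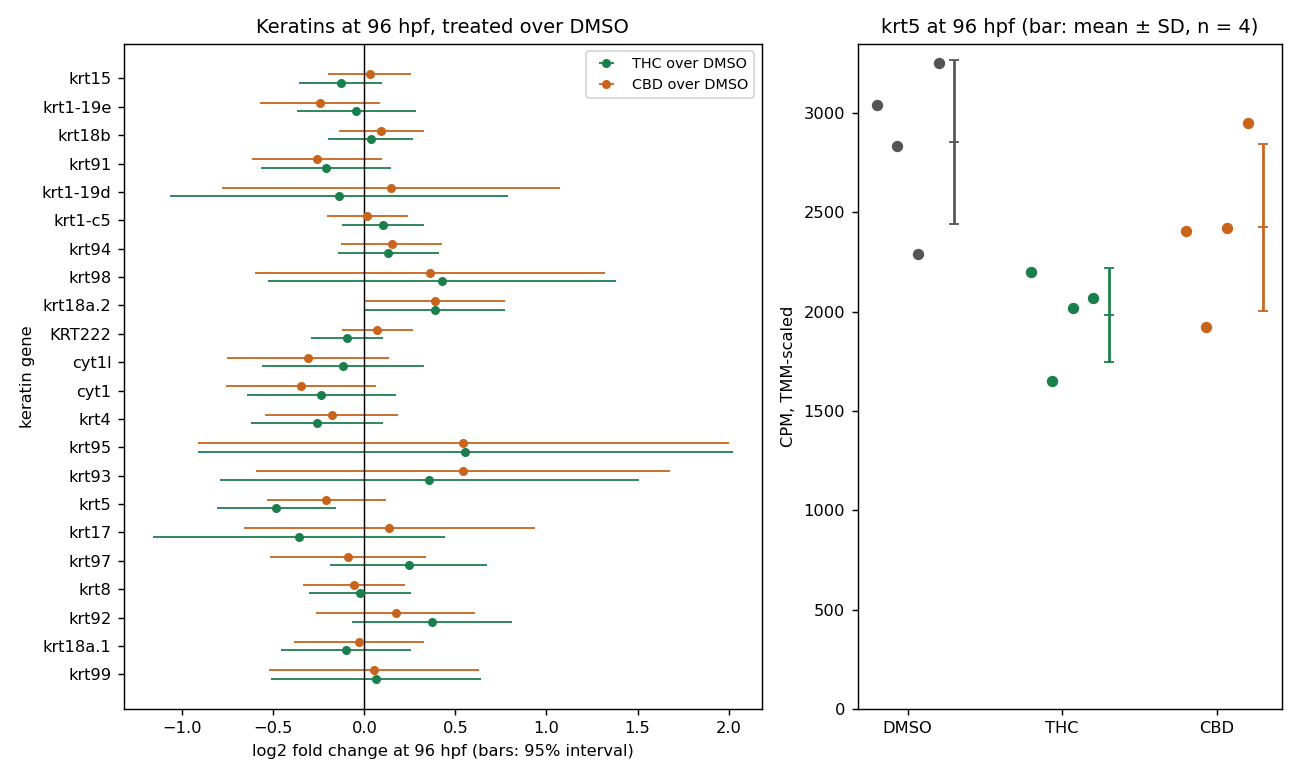
Left, log2 fold change of the 22 keratins (vertical axis) in THC and CBD larvae against DMSO at 96 hpf with 95% intervals; right, CPM of krt5 in each larval library with mean ± SD (n = 4). The intervals of all but krt5 and krt18a.2 reach 0, and the 4 THC values of krt5, 1649 to 2198 CPM, lie below the 4 DMSO values.

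Other keratins named by smallest p at 96 hpf ranged from few to many reads. The keratin 18 copy krt18a.2 stood at 4.32, 5.73, 6.62 and 6.67 CPM in DMSO, 7.22, 7.37, 8.64 and 6.50 CPM in THC and 6.01, 6.30, 8.56 and 9.14 CPM in CBD. Its log2 fold change was 0.39 in both treatments (SE 0.179, adjusted p = 1 by edgeR), and the groups overlap. For krt92 THC stood at 322 ± 76.1 CPM and DMSO at 255 ± 71.4 CPM (0.37, SE 0.204). Between CBD and DMSO cyt1 stood at 626 ± 144 and 814 ± 227 CPM (−0.35, SE 0.191) and krt1-19e at 2690 ± 282 and 3250 ± 632 CPM (−0.24, SE 0.152). CBD against THC gave 0.17 for KRT222 (SE 0.0916), 0.27 for krt5 (SE 0.153) and −0.33 for krt97 (SE 0.200). The adjusted p was 1 for each of these.

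For abundant larval chains other than krt5, whose interval is given above, the intervals are each for a single gene and speak for the spread among these libraries alone. The 95% interval of THC against DMSO was −0.62 to 0.10 for krt4, −0.37 to 0.28 for krt1-19e, −0.57 to 0.15 for krt91 and −0.56 to 0.33 for cyt1l on the log2 scale. Within the keratin reads, krt1-19e took 14.4% to 15.7% in the THC larvae, against 12.3% to 14.2% in DMSO and 11.8% to 13.9% in CBD. Its share in THC did not overlap with either, which was seen after the values were computed and was not tested. It was the only one of 22 shares without overlap at 96 hpf. At 10 hpf the share of krt99 was lower in CBD than in THC without overlap. How often shares part in this way by chance or for other genes was not computed, so neither share is read as an effect of a treatment. A share also depends on the other keratins. In CPM krt1-19e was not higher with THC, at 3058 ± 318 against 3250 ± 632 with DMSO.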

How the data were processed

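The deposited files hold raw read counts per Ensembl gene, 1 file for each of the 24 libraries. Per the submitters' processing notes the authors used STAR, HTSeq and edgeR with the build GRCz11, versions not given in the sources used here, and the file names state HTSeq's union mode with reverse strand. Rows naming no gene numbered 0. Symbols came from a table that named 27000 of the 35117 identifiers.

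Tests were run in R 4.3.3 with edgeR 4.0.16 (quasi-likelihood, filterByExpr with a minimum count of 10 and total of 15, TMM, Benjamini-Hochberg threshold 0.05). Stage and interaction contrasts used 1 fit of all 24 libraries, and treatment contrasts 1 fit of the 12 libraries of each stage, each scaled within itself, so a fitted fold can differ slightly from a ratio of CPM means. Limma 3.58.1 and DESeq2 1.42.0 served as alternatives, with other scalings and filters, left-out libraries, a replicate block and fits of only the 8 libraries compared. Scripts were tested on simulated counts, where the changed genes were drawn at random from all genes tested. For treatment comparisons at 10 hpf, recovery was 1% to 2% at a 2-fold difference and 26% to 31% at 4-fold. At 96 hpf it was 62% to 66% and 90% to 94%, and between stages in DMSO 17% and 66%. Few genes were changed in the simulated counts, whereas 77.1% of genes were called between the real stages in DMSO. The simulated stage values are thus not read as the recovery of the real stage test.

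Values per library are given for the 6 members with the highest mean CPM in DMSO at each stage, the 4 largest rises and falls among those called in DMSO and, per treatment comparison, members called or else the 3 smallest p. Other genes come from 8 lists of 143 symbols, of which 16 had no match, with up to 4 smallest p named per list. Members and lists were chosen with earlier results of these data known. Intervals from pooled counts cover counting error only.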

Additional observations from a re-analysis of the deposited data

Results flagged for a closer look

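Groups of 4 libraries with a mean of at least 1 CPM were searched for 1 library apart from the other 3. By Dixon's ratio at its 95% critical value this held in 10 of the 115 groups, and chance alone marks about 1 in 20 groups. However, krt15 in DMSO at 10 hpf (mean 1.80 CPM, 0.0707 without library 4) reached that mean only through the flagged library. The same holds for krt98 in THC at 96 hpf. Their flags follow in part from the filter, so the 10 cannot be set against the chance rate. At 10 hpf there were 7 such cases. CBD library 3 held 2308 CPM of krt17 (412 to 601 in the other CBD libraries) and 4809 CPM of krt92 (1386 to 1955). DMSO library 4, the shallow one, held 62.8 CPM of krt1-19e from 9 counts (0.279 to 3.05) and 6.98 CPM of krt15 from 1 count (0.0558 to 0.0984). The summed skeletal muscle list in that library, 775 CPM, was 1.40% of its mean in DMSO larvae, and krt1-19e was 1.93% of its own. In the other 11 libraries of 10 hpf the muscle list stood at 0.0244% to 0.678% and krt1-19e at 0.00467% to 0.194%.

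DMSO library 1 held 3399 CPM of krt5 (2609 to 2672 in the others), THC library 4 held 268 CPM of cyt1 (149 to 162), and CBD library 1 held 2848 CPM of krt18a.1 (4241 to 4444). All 3 are among the 4 libraries with low nanog. At 96 hpf CBD library 1 held 200.4 CPM of krt18b (156 to 162), CBD library 3 held 4.14 CPM of krt93 (1.33 to 1.80) and THC library 2 held 2.97 CPM of krt98 (0.780 to 0.986).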

How the results depend on the processing

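Across the settings run, 396 values for counts of keratins stayed within 1.5 times and 6 did not. Keratins at least 4-fold lower at 96 hpf went from 5 to 2 in DMSO and in THC with DESeq2 size factors and by its Wald test, and to 3 in THC by library totals. Voom called 2 keratins instead of 0 for the stage difference of the CBD effect, among 578 of 22741 genes. Values that changed sign were krt5 between stages in DMSO (0.71 with DESeq2 size factors and by its Wald test, called in both, 0.0096 with no filter, 0.076 with a filter of 1 CPM in 4 libraries and 0.056 with only the 8 libraries compared), in THC (0.20 with both DESeq2 settings) and in CBD (0.31 with both), krt93 between stages in DMSO (−0.00675 by voom), and krt1-19e for THC against DMSO at 10 hpf (0.077 by voom, 1.02 without DMSO library 4, alone or with CBD library 3). With single libraries left out, krt5 in DMSO ran from −0.16 to 0.11 and krt93 from −0.0076 to 0.78. The split of the 4-fold counts by direction and the values of keratins not called between stages were added after seeing the data. Leaving out single libraries gave 13 to 14 higher and 5 to 6 lower keratins in DMSO, 14 and 5 to 7 in THC, and 10 to 14 and 6 to 7 in CBD, with 14 to 17, 15 to 18 and 14 to 17 past 4-fold, of which 4 to 5, 4 to 5 and 5 to 6 were lower, and 0 in every treatment comparison. The value of krt1-19e for THC against DMSO at 10 hpf then ran from −2.15 to 1.02. The cause was not tested. For these left-out fits the shares of all genes called are not given here. Replicate numbers did not pair the samples (correlations of same-numbered deviations from −0.545 to 0.653), and with a replicate block 13 keratins rose and 6 fell in DMSO, 14 and 7 in THC and 11 and 7 in CBD, with 0 called between treatments. The stage calls of krt17 in THC, krt5 in THC and CBD, and cyt1l and krt4 in CBD were lost under some settings. DMSO library 4 of 10 hpf, with 125926 counts, limits what can be seen of larval keratins in DMSO embryos.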
